A study of Mus musculus with 8 samples.

Results

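The transcriptome of activated control B cells is described here from 4 of the 8 RNA-seq libraries of the study, those titled as controls, by abundance rank, functional class and spread between libraries. All 4 libraries were used with no genotype comparison, and the other 4 libraries were not analysed here. The controls were Eif4a1+/+ mice on the C57BL/6 strain that carried the Cd23-cre transgene, in which cre is driven by the promoter of the gene for CD23, so the controls express cre in mature B cells. B cells were isolated from the spleens of mice aged 8 to 12 weeks and kept in culture for 24 h on irradiated CD40LB cells with 40 ng/ml IL4. CD40LB is a fibroblast feeder line that presents CD40 ligand and human BAFF. The feeder cells were then removed with an antibody to H-2Kd and magnetic beads. Control 1 was a male and control 2 a female of batch A, and control 3 was a male and control 4 a female of batch B. The labels give the batch only as a letter. Every value is therefore from cells that had met CD40 ligand, BAFF and IL4 together, and no resting or IL4-only library was included. The study left replicate 1 out of its own testing for reduced viability, and the results that moved most with control 1 are also given without it.

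A resting follicular B cell is small and makes little protein. Ligation of CD40, a receptor of the TNF family, activates NF-kB through TRAF adaptors, and IL4 activates STAT6 through the IL4 receptor, the signals that a B cell normally receives from a helper T cell. Together they promote growth, ribosome production, entry into the cell cycle, surface molecules for contact with T cells and switching of the antibody heavy chain to IgG1 and IgE.

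Between 39890141 and 43210858 counts were assigned to genes in each library, and 12839 to 12993 genes reached 1 TPM, the authors' unit of transcript abundance, which is scaled to gene length and to the same total in each library. A level in TPM is a share of the RNA of a library, so fewer cells with a transcript and less of it in each cell cannot be told apart. All 16 markers of B cells were above 10 TPM, from Cr2 (complement receptor 2) at 26.2 TPM to Igkc (the kappa constant region) at 3808 TPM. Their summed TPM was 15150, 14280, 13250 and 12440 in controls 1 to 4. Markers of neutrophils, NK cells, erythroid cells and platelets stayed below 1 TPM, with 0 of 31 members above it. Of 15 T cell markers 4 reached 1 TPM, led by Thy1 at 18.8 TPM, whereas Cd3g, Trbc1 and Trbc2 were at 0 and Cd3e was at 0.0146 TPM. Of 12 monocyte and macrophage markers 3 reached 1 TPM, led by Mpeg1 at 8.91 TPM. Bst2 at 78.5 TPM, which B cells also transcribe after interferon, led the dendritic cell markers, of which 4 of 8 reached 1 TPM, and Itgax was at 0.0740 TPM. Fibroblast genes of the feeder cells summed to 13.2, 26.5, 7.07 and 7.55 TPM, with Col1a1 highest at 3.76 TPM and Postn, Dcn, Pdgfrb and Timp3 at 0. Plasma cell markers were low (6 of 7 above 1 TPM, led by Jchain at 21.2 TPM), and of 8 germinal centre markers 4 reached 1 TPM, while S1pr2 was at 0.247 TPM.

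A small set of genes held most of the RNA. The 10 most abundant genes held 6.483%, 6.365%, 6.194% and 6.021% of all TPM in controls 1 to 4, the 100 most abundant between 25.22% and 26.88%, and the 1000 most abundant between 61.0% and 63.03%. From the means of the 4 libraries, 501 genes held 50% of the TPM and 4519 held 90%. Of 53242 annotated genes, 12951 had a mean of at least 1 TPM, 8359 of at least 10, 1928 of at least 100 and 137 of at least 1000 TPM. Eef1a1, Actb, Cd74 and Hsp90ab1 held the first 4 ranks in every library. Of the 10 most abundant genes of each library, 5 were among the first 10 in all 4 libraries, whereas 85 of the first 100 and 888 of the first 1000 were shared by all 4.

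**Figure D1:**
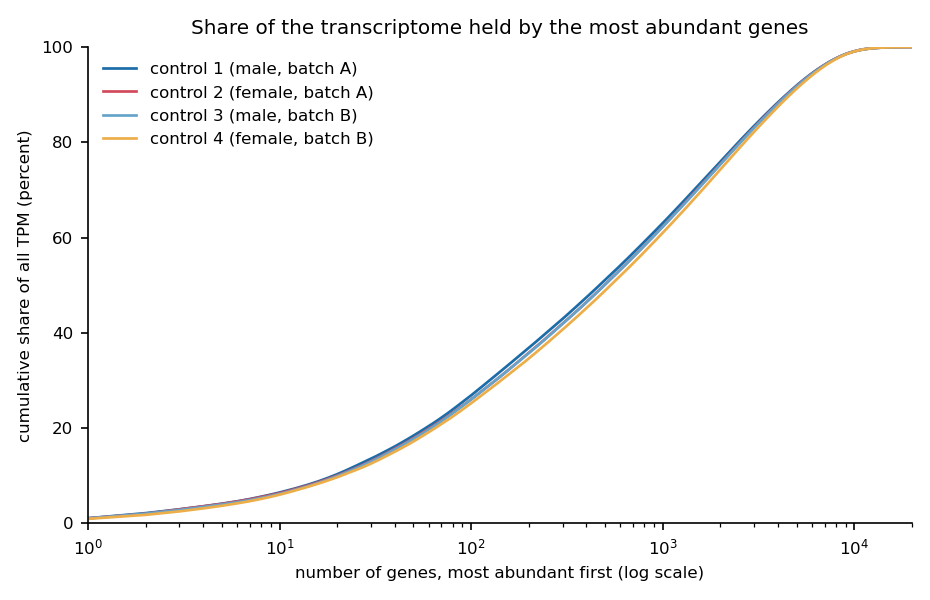
Cumulative share of all TPM (percent, vertical axis) held by the most abundant genes, ranked within each library (horizontal axis, log scale), with 1 line for each of the 4 control libraries. The lines lie close together: the first 1000 genes hold between 61.0% and 63.03% of the TPM.

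The most abundant transcript was Eef1a1, the elongation factor that brings aminoacyl-tRNA to the ribosome, with 10710, 10650, 10530 and 9510 TPM in controls 1 to 4. Actb (beta-actin) followed with 8043, 9198, 9760 and 8403 TPM. Cd74, the invariant chain that guides MHC class II molecules to their peptides, had 10790, 9559, 7804 and 7241 TPM, so its rank was 1 in control 1 and 3 in controls 3 and 4. Hsp90ab1, a cytosolic chaperone, had rank 4 in every library at 6320 to 6524 TPM. Ribosomal proteins made up 11 of the first 25 genes and 46 of the first 100. Mitochondrially encoded genes made up 3 of the first 25 and 11 of the first 100. Among the first 25 there were also genes that mark B cells or their activation. These were Igkc at 3808 ± 506 TPM (SD, n = 4), Ighm (the IgM heavy chain) at 3352 ± 367 TPM, the chemokine gene Ccl22 at 3325 ± 1155 TPM, Fcer2a at 3106 ± 348 TPM and H2-Ab1 (an MHC class II beta chain) at 3059 ± 695 TPM. Fcer2a encodes CD23, whose transcription IL4 raises, and its promoter is the one that drives cre in these mice. Ccl22, whose product attracts T cells through CCR4, had the widest range of ranks among these 25, from 57 in control 1 to 7 in control 4.

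TPM and counts gave different shares for several kinds of gene. Protein-coding genes held 87.5% of the TPM and 97.0% of the counts. Processed pseudogenes, copies that arose from mRNA, held 6.32% of the TPM but 1.01% of the counts, and 1401 of them reached 1 TPM. Unprocessed pseudogenes, led by Gm10925 at 1856 TPM, held 0.665% of the TPM and 0.00598% of the counts. Several mitochondrial genes showed the same gap. For mt-Co2 (a cytochrome c oxidase subunit) the mean was 1417 TPM, but the libraries had 162, 143, 243 and 248 counts, while mt-Co1 with a mean of 4204 TPM had 96513 to 176796 counts. Mitochondrial tRNA genes held 0.436% of the TPM on 0.00477% of the counts. In the other direction, 11 genes had a mean count above 500 and were listed at 0 TPM in all 4 libraries. How the 2 tables divided reads between overlapping or near-identical genes was not tested, and levels of single members of such families are uncertain.

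The 39 functional classes held 1640 genes of the table, and 4 further symbols of the lists were not matched. Their summed TPM was 470800, 464300, 463900 and 458600 in controls 1 to 4, or 46.4% of the total. In all, 1391 of the 1640 members reached 1 TPM, and these had a median of 85.2 TPM against 19 TPM for all 12951 genes at that level. The order of the classes was similar in the 4 libraries, with cytosolic ribosomal proteins first in each, and replication-dependent histones last in controls 1 to 3 and interferon-stimulated genes last in control 4. Summed TPM varied by a coefficient of variation (CV, SD over mean) under 5% in 11 classes, between 5% and 10% in 17 and above 10% in 11.

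**Figure D2:**
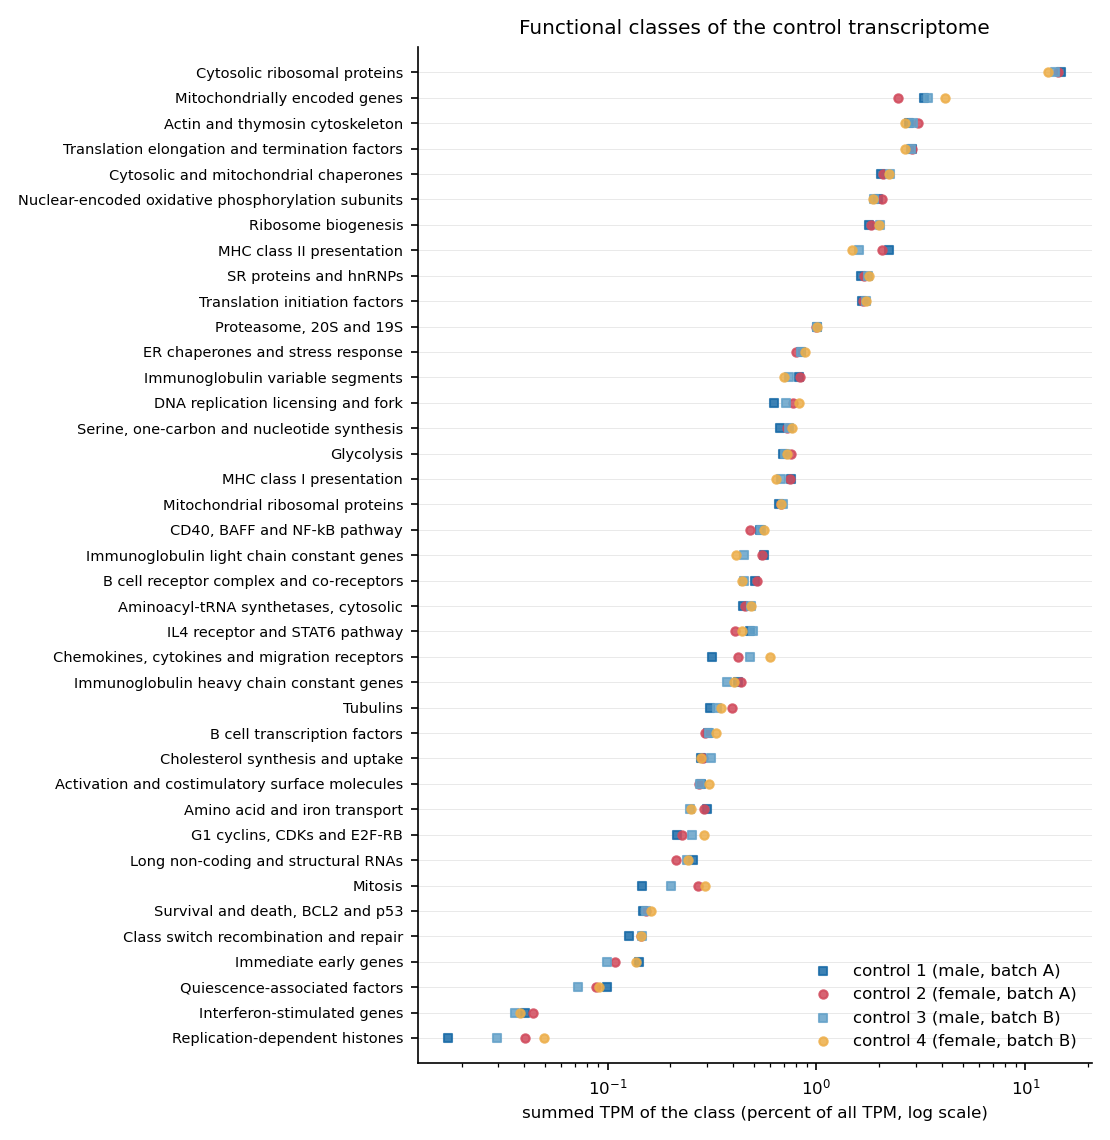
Summed TPM of each functional class as a percent of all TPM (horizontal axis, log scale), with 1 point for each control library, squares for males, circles for females. Classes are ordered by their mean, from cytosolic ribosomal proteins (14.0%) to replication-dependent histones (0.0342%), and the points of a class overlap for most classes but are spread for mitosis, chemokines and histones.

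Cytosolic ribosomal proteins, the protein part of the ribosome, were the largest class by TPM. They summed to 148600, 142700, 138800 and 128400 TPM in controls 1 to 4 (14.0% of the TPM and 5.82% of the counts). The sum was lower in batch B than in batch A in both sexes, to 0.934 of it in males and 0.900 in females, and lower in the female than in the male of each batch, to 0.960 in batch A and 0.925 in batch B. Of the 86 members tested by edgeR 80 were lower in batch B in both sexes (93.0%, against 34.3% of all genes tested) and 74 were lower in the female of both batches (against 4307 of 14306). Of the 86, 0 were called for sex or batch, where 0.412% and 0.0559% of all genes tested were called higher in females and in males, and 1.83% and 1.57% higher in batch B and in batch A. The members were even: the largest, Rpl8, gave 3.59% of the sum, and 22 genes were needed to reach 50% of it. At the head of the class stood Rpl8 at 5017 ± 339 TPM, the stalk proteins Rplp1 at 4721 ± 328 and Rplp0 at 4475 ± 241, and Rps14 at 4253 ± 662 TPM (SD, n = 4). Rps14 had 4953, 4617, 3471 and 3971 TPM and was lower in both libraries of batch B. Of the 89 members, 87 were above 1 TPM, and Rpl10l and Rpl3l, copies used mainly in testis and in muscle, were listed at 0 in all libraries. Because these mRNAs are known for a run of pyrimidines at the very start of the transcript, through which mTORC1 controls their translation, the sequence at the start is shown for 5 of the 25 most abundant ribosomal protein genes and other transcripts of similar rank. The sequences are 30 bases around the longest run of pyrimidines near the transcription start, 5′ to 3′ on the strand of the gene, from the RefSeq promoter table of build GRCm38.p6, whose coordinates are given as they stand there and were not converted to the GRCm39 build of the deposited files. Capitals mark the longest run of C and T within a window from 20 bases before to 50 after the start.
Rplp0 (chr5:115559466-115559495, plus strand): aggaccgcctggTTCTCCTataaaaggcac
Rps15 (chr10:80292446-80292475, plus strand): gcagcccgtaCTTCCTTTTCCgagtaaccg
Rpl13a (chr7:45128722-45128751, minus strand): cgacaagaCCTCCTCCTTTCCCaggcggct
Rpl4 (chr9:64173405-64173434, plus strand): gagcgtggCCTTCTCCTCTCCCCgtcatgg
Rps4x (chrX:102189342-102189371, minus strand): cgcgcagcctccgaccctaaTTTCTTCgtt
Eef1a1 (chr9:78481710-78481739, minus strand): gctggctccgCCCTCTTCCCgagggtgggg
Eef2 (chr10:81176634-81176663, plus strand): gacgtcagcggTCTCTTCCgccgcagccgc
Ccl22 (chr8:94745654-94745683, plus strand): ttaaatatcagaCCTTCCTgccctctggtc
Fcer2a (chr8:3694146-3694175, minus strand): cagaagactactgTCTTCaacacactagcc
Pfn1 (chr11:70654642-70654671, minus strand): tttgcaaataaaaaTCTagagggggggggg
The run began 2 bases downstream of the annotated start in Rpl13a and 11 in Rplp0, but 25 in Rps15, 26 in Rpl4 and 40 in Rps4x, so that it was not at the annotated start in these genes. In Eef2 and Fcer2a it began 14 and 12 bases downstream, and in Eef1a1, Pfn1 and Ccl22 upstream of the start. The longest run was 15 bases in Rpl4, 14 in Rpl13a and 11 in Rps15, but 7 in Rplp0 and Rps4x. It was 10 in Eef1a1 and 8 in Eef2, elongation factors, against 7 in Ccl22, 5 in Fcer2a and 3 in Pfn1, the actin-binding protein profilin. A run of at least 8 pyrimidines lay in this window, on the strand of the gene, in 47 of 64 ribosomal protein genes with a listed start (73.44%), in 1910 of 8496 genes at 1 TPM or above (22.48%) and in 5270 of all 20983 starts (25.12%). Of the 43 genes at 1000 TPM or above that were not ribosomal proteins, 10 had such a run (23.26%). A run is a match of letters and not a mapped start, and translation was not measured in these libraries.

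The rest of the protein synthesis machinery was abundant and varied little. Translation elongation and termination factors summed to 28580, 28690, 28410 and 26660 TPM, and Eef1a1 gave 36.8% of the sum. Eef2, the translocase of the ribosome, had 3474 to 3623 TPM, Eif5a 2833 TPM and Rack1, a scaffold on the small subunit, 2253 TPM. Eef1a2, the paralog of neurons and muscle, was at 0. Initiation factors summed to 16510, 16700, 17260 and 17220 TPM, a CV of 2.22%, with 47 of 48 members above 10 TPM. Their leading members were Pabpc1 (the poly(A)-binding protein) at 2906 TPM, Eif4a1 at 1046 TPM, and the EIF3 subunits Eif3b at 742 and Eif3g at 668 TPM. Eif4a1 encodes the RNA helicase that the study deletes in its other group. It had 973.8, 933.0, 1142 and 1136 TPM in these Eif4a1+/+ libraries, and its paralog Eif4a2 had 574.7, 411.0, 511.2 and 528.2 TPM. Both libraries of batch B were above both of batch A for Eif4a1, while the batches overlapped for Eif4a2. Ribosome biogenesis factors summed to 17860, 18220, 20190 and 19910 TPM with all 56 above 10 TPM, and Npm1 at 4149 TPM and Ncl (nucleolin) at 2647 TPM led them. Cytosolic aminoacyl-tRNA synthetases summed to 4471 to 4854 TPM, led by Vars (542 TPM) and Kars (403 TPM). Mitochondrial ribosomal proteins, 77 of 77 above 10 TPM, had a CV of 1.62% around a sum of 6764 TPM, with Mrpl12 (270 TPM) first.

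In energy metabolism the nuclear and the mitochondrial parts differed in their spread. Mitochondrially encoded genes summed to 32840, 24490, 34320 and 41350 TPM, lowest in control 2 and highest in control 4, a CV of 20.8% (25.4% without control 1). At the top were mt-Co1 with 3835, 3085, 4425 and 5470 TPM, mt-Nd1 with 3748, 2927, 4487 and 4985 TPM, and mt-Cytb with 3935, 2720, 4087 and 4540 TPM, each lowest in control 2 and highest in control 4. The nuclear genes for subunits of oxidative phosphorylation summed to 19690, 20550, 18820 and 18600 TPM, a CV of 4.59%, with Atp5b of the ATP synthase at 1882 TPM and Cox4i1 at 815 TPM. Glycolytic genes summed to 6915, 7556, 7089 and 7225 TPM, led by Aldoa (1530 TPM), Pkm (1500 TPM) and Ldha (1382 TPM), which make fructose bisphosphate aldolase, pyruvate kinase and lactate dehydrogenase. Genes of serine, one-carbon and nucleotide synthesis summed to 6707, 7202, 7391 and 7622 TPM, and Nme2 (903 TPM), Shmt2 (792 TPM) and Impdh2 (482 TPM) were among the first 4. Cholesterol synthesis and uptake genes summed to 2791 to 3112 TPM, 27 of 29 above 10 TPM, with the synthase Fdps at 425 TPM and the transcription factor Srebf2 at 312 TPM. In the class of amino acid and iron transport the ferritin chains Ftl1 (1099 TPM) and Fth1 (577 TPM) were above the transporters Slc1a5 (276 TPM) and Slc7a5 (251 TPM), and Slc38a5 was at 0.

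Protein folding, protein breakdown and RNA binding classes had CVs under 5%. Cytosolic and mitochondrial chaperones summed to 20390, 20910, 22540 and 22340 TPM, with Hsp90ab1 giving 29.8% and Hspa8 at 2468 TPM next. The 32 subunits of the proteasome, which degrades ubiquitinated proteins, summed to 10030, 9971, 10070 and 10020 TPM. Its CV of 0.401% was the smallest of the 39 classes, and the largest subunit by TPM, Psma6, gave 5.74% of the sum. Chaperones of the endoplasmic reticulum and the stress response summed to 8443, 7981, 8477 and 8806 TPM, led by Calr (calreticulin, 1965 TPM), Hspa5 (BiP, 1230 TPM), Hsp90b1 (691 TPM) and the transcription factor Atf4 (661 TPM). SR proteins and hnRNPs, which bind pre-mRNA and guide splicing, summed to 16340, 16900, 17680 and 17880 TPM, with Hnrnpa2b1 at 1650 TPM and Hnrnpab at 1427 TPM. The actin and thymosin class summed to 27730, 30620, 28830 and 26510 TPM, 31.1% of it from Actb, and Pfn1 (3001 TPM) and the actin-severing Cfl1 (2401 TPM) followed. Tubulins summed to 3102, 3950, 3338 and 3508 TPM, and Tubb5 at 1831 TPM gave 52.7% of that sum.

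Antigen presentation genes were abundant. By edgeR, 5 of 11 MHC class II genes tested were called higher in batch A, as given with the batch comparison. Of 22 MHC class I genes tested 1 was called higher in batch A, and over all genes tested 1.57% were. MHC class II presentation genes, through which B cells show peptides to helper T cells, summed to 22170, 20490, 15970 and 14720 TPM. All 11 were above 10 TPM, and Cd74 gave 48.3% of the sum. H2-Ab1 had 3775, 3507, 2641 and 2312 TPM, H2-Aa 3578, 3491, 2454 and 2362 TPM, and H2-Eb1 2447, 2382, 1694 and 1572 TPM. Each of these was higher in both libraries of batch A than in both of batch B. Ciita, the transcriptional coactivator of this class, had 72.44, 84.48, 70.56 and 67.39 TPM. The sum in batch B was 0.720 of that in batch A for males and 0.719 for females. MHC class I presentation genes summed to 7584, 7507, 6763 and 6373 TPM, with B2m at 1963 TPM, H2-K1 at 1665 TPM, H2-D1 at 918 TPM and the proteasome activator subunit Psme2 at 663 TPM.

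Among immunoglobulin genes, Ighm had 3606, 3718, 2955 and 3130 TPM and gave 82.1% of the heavy chain constant class. Ighd, the IgD constant gene, had 278.0, 215.9, 238.8 and 175.3 TPM. Ighg1 had 240.3, 268.3, 440.6 and 544.7 TPM and Ighe had 52.82, 73.06, 89.33 and 135.2 TPM, both higher in batch B. Ighg2b (15.4 TPM), Ighg3 (13.6 TPM), Igha (9.62 TPM) and Ighg2c (5.83 TPM) were lower. Counts on a constant gene do not separate switched heavy chain mRNA from the germline transcript that precedes switching. Genes of class switch recombination and repair were led by Apex1 (410 TPM), Parp1 (337 TPM) and the uracil glycosylase Ung (170 TPM). Light chains were mostly kappa, with Igkc at 4323, 4134, 3538 and 3238 TPM and the lambda genes Iglc2 (511 TPM), Iglc3 (389 TPM) and Iglc1 (207 TPM) below it. Of the 380 variable, diversity and joining segments 212 reached 1 TPM and 102 were at 0, and the joining segment Igkj1 (1021 TPM) was first. This class of short segments held 0.773% of the TPM, 0.0691% of the counts and 1.635% of the counts per kilobase of gene length.

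The genes of the B cell receptor complex and its co-receptors summed to 5058, 5173, 4490 and 4405 TPM, with all 25 above 10 TPM. Cd79b, a signalling chain of the receptor, had 788 TPM, the tetraspanin gene Cd37 450 TPM and the phosphatase gene Ptpn6 389 TPM. Cd79a, the partner of Cd79b, had 440.4, 484.3, 320.9 and 276.5 TPM, higher in both libraries of batch A. The B cell transcription factor class summed to 3010, 2928, 3062 and 3317 TPM and 22 of 23 members were above 10 TPM. Mef2c (563 TPM), the coactivator gene Pou2af1 (374 TPM), Pax5, which maintains B cell identity (342 TPM), and Irf4, which rises on activation (233 TPM), were its 4 most abundant. Pax5 had 292.4, 320.9, 361.1 and 394.2 TPM. Irf4 had 240.5, 179.3, 209.7 and 304.0 TPM and its ranges overlapped between sexes and batches. Genes named here beyond the most abundant of a class were chosen for their role after their values were seen, and among these Bach2 (37.4 TPM) and Bcl6 (14.1 TPM), repressors of the plasma cell fate, stood above Prdm1, its inducer, which had 1.52, 1.90, 3.73 and 3.87 TPM.

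The pathways of the stimuli were transcribed throughout. Genes of CD40, BAFF and NF-kB signalling summed to 5345, 4830, 5417 and 5580 TPM, and 34 of 35 were above 10 TPM. The receptors were present, with Cd40 at 206.2, 195.3, 232.5 and 229.5 TPM and Tnfrsf13c, the BAFF receptor gene, at 276.4, 266.9, 350.3 and 310.9 TPM, while Tnfrsf17 (BCMA) was at 0.116 TPM. The NF-kB subunit genes Nfkb2 (430 TPM) and Nfkb1 (410 TPM) were above Rel (146 TPM), Rela (109 TPM) and Relb (103 TPM). The inhibitor gene Nfkbia had 641.0, 453.7, 554.3 and 624.6 TPM. Target genes that promote survival were high, with Bcl2a1b at 598 TPM and Bcl2l1 (BCL-XL) at 243.5, 197.4, 301.6 and 275.1 TPM. Bcl2a1b, Bcl2a1d and Bcl2a1a are near-identical copies, and their separate levels are uncertain. The class of the IL4 receptor and STAT6 summed to 4812, 4065, 4944 and 4412 TPM, and Fcer2a gave 68.1% of it. The receptor chain genes Il2rg and Il4ra had 255 and 130 TPM, Jak1 149 TPM and Stat6 126 TPM, and Il4i1, an amino acid oxidase gene induced by IL4, had 207 TPM. Il4ra had 106.7, 89.01, 150.6 and 175.4 TPM. Feedback inhibitors of cytokine signalling varied more. Cish had 16.87, 9.081, 60.63 and 65.65 TPM and Socs2 37.02, 35.88, 73.41 and 118.8 TPM, higher in batch B for both genes, whereas Socs1 had 6.90 TPM and Socs3 14.4 TPM.

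Surface molecules of activation summed to 2806, 2748, 2761 and 3064 TPM. Cd83 (443 TPM), Il21r (367 TPM), the adhesion receptor gene Cd44 (362 TPM) and the amino acid transporter chain Slc3a2 (310 TPM) were the most abundant. Cd69, the early activation marker, had 230.3, 190.2, 169.0 and 291.5 TPM, and the costimulatory ligand genes Cd86 and Cd80 had 16.8 and 8.47 TPM. The class of chemokines, cytokines and migration receptors summed to 3148, 4230, 4815 and 6002 TPM, a CV of 26.2% (18% without control 1), and Ccl22 gave 73.1% of the sum. Ccl22 had 1921, 3085, 3588 and 4705 TPM. Ebi3, a cytokine subunit gene, followed at 379 TPM, Gpr183, the receptor gene that guides activated B cells to the follicle edge, at 164 TPM, Tgfb1 at 150 TPM and Ccr7 at 141 TPM. Ccl17, whose product shares the receptor of CCL22, had 2.13 TPM.

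Cell cycle genes were expressed from G1 to mitosis, and the summed TPM of histones and mitosis genes had the largest CVs of the 39 classes. In the class of G1 cyclins, CDKs and E2F-RB, which summed to 2155, 2270, 2550 and 2891 TPM, Cdk4 had 509.8, 542.3, 505.9 and 526.6 TPM, Myc 355.0, 256.5, 431.2 and 560.5 TPM and Ccnd2 (cyclin D2) 272.3, 272.2, 479.2 and 500.2 TPM. Cdk4 was nearly level. Ccnd2 was higher in batch B, whereas Myc, with both libraries of batch B above both of batch A, was not called (adjusted p = 0.0696, edgeR). Ccnd2 was above Ccnd3 (107 TPM) and Ccnd1 (1.19 TPM), and the cyclin E genes Ccne1 and Ccne2 had 30.2 and 13.5 TPM. Replication genes summed to 6241, 7750, 7175 and 8238 TPM and all 53 were above 10 TPM, led by the clamp gene Pcna (725 TPM) and the helicase subunit genes Mcm3 (570 TPM), Mcm5 (469 TPM) and Mcm6 (395 TPM). Mitosis genes summed to 1466, 2721, 2011 and 2933 TPM, lowest in control 1, with both females above both males. The most abundant were Top2a (179 TPM), Smc4 (150 TPM), Ube2s (127 TPM) and Bub3 (120 TPM). Replication-dependent histone genes, transcribed in S phase, had the same order at 173.0, 404.2, 294.1 and 494.7 TPM. Their mRNAs end in a stem-loop in place of a poly(A) tail, whether poly(A) RNA was selected is not given in the sources used here, and 34 of 65 reached 1 TPM. H2ac23 (90.4 TPM) and H2ac24 (88.3 TPM) gave most of the sum. Without control 1 the CV was 18.9% in place of 29.5% for mitosis, and 25.3% in place of 40.7% for histones. Quiescence-associated factors summed to 994.9, 876.2, 718.9 and 913.3 TPM, with the RNA-decay factor genes Zfp36l1 (260 TPM) and Zfp36 (157 TPM) first. Immediate early genes summed to 1410, 1091, 993.1 and 1361 TPM, led by Jund (391 TPM) and Junb (182 TPM), and Egr1 had 107.6, 59.13, 25.15 and 74.04 TPM.

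The class of BCL2 family and p53 genes summed to 1474, 1530, 1521 and 1616 TPM, with Trp53 (331 TPM), Bax (289 TPM), Mcl1 (174 TPM) and Bid (138 TPM) first. Bcl2, which resting B cells use for survival, had 24.0 TPM. The pro-death gene Bcl2l11 (BIM) had 19.67, 10.65, 7.821 and 10.18 TPM, highest in control 1. Interferon-stimulated genes were low, with 24 of 35 above 1 TPM, 10 above 10 TPM and sums of 403.4, 438.7, 361.8 and 382.2 TPM. After Bst2, Ifi35 (61.1 TPM) and Irf1 (53.1 TPM) came next. Among long non-coding RNAs the snoRNA host genes Gas5 (638 TPM), Snhg1 (354 TPM), Snhg15 (340 TPM) and Zfas1 (236 TPM) were the most abundant, and the structural RNAs Rmrp, Rny3 and Terc were at 0.

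**Figure D3:**
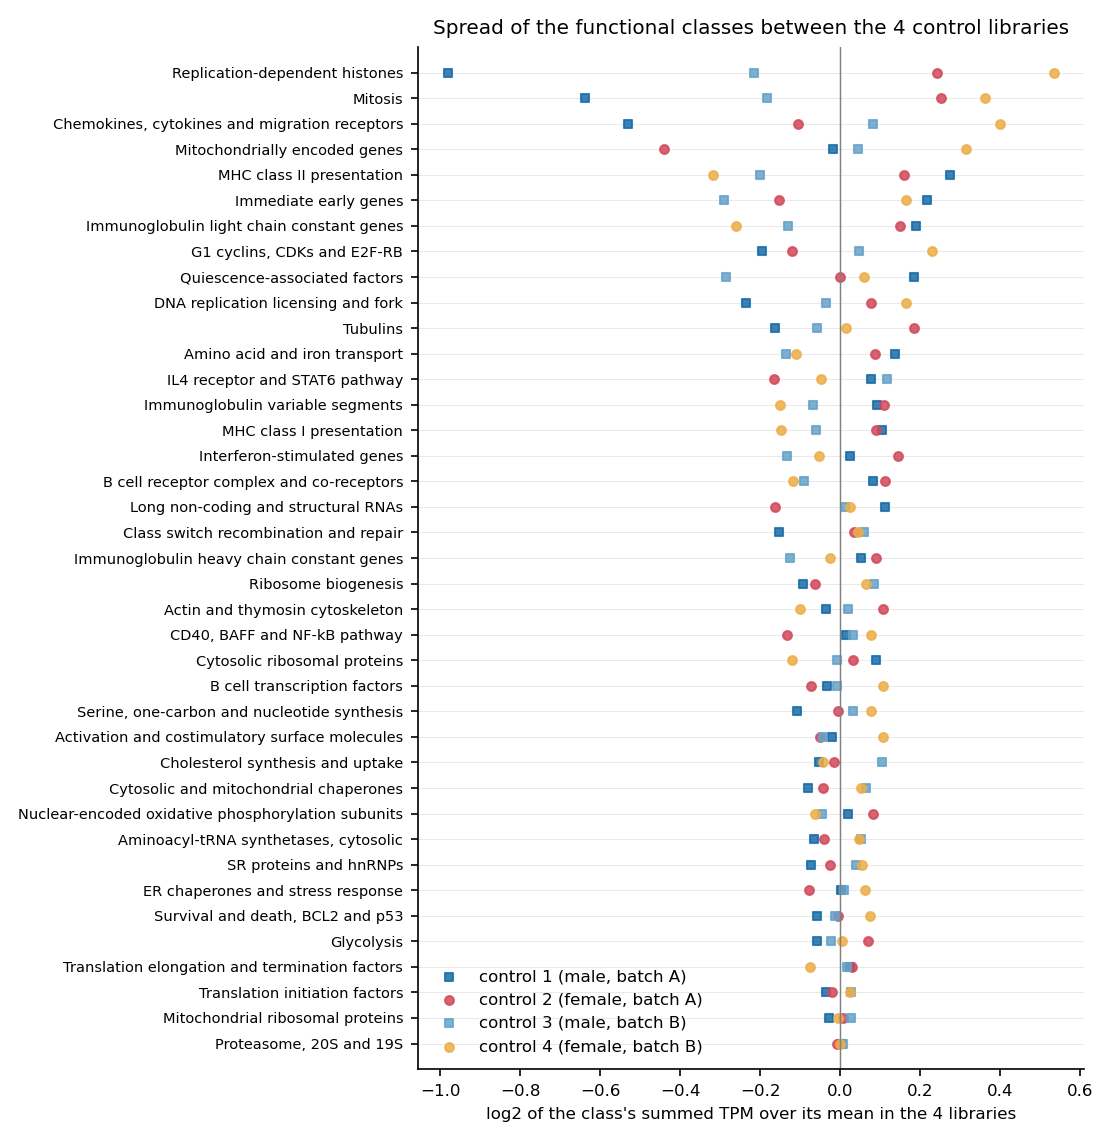
Log2 of the summed TPM of each class over its mean in the 4 control libraries (horizontal axis), with 1 point for each library and classes ordered from the most to the least variable. Histones, mitosis and chemokines have control 1 at the low end and control 4 at the high end, MHC class II presentation has both libraries of batch A above both of batch B, and the proteasome points lie on each other.

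Single genes varied more the lower their level. The median CV between the 4 libraries was 18.8% for 4592 genes between 1 and 10 TPM, 10.5% for 6431 genes between 10 and 100 TPM, 7.11% for 1791 genes between 100 and 1000 TPM and 6.84% for 137 genes above that. At 10 TPM or more it was 9.66% over 8359 genes, and 319 of them (3.82%) had a CV above 30%. By class, the median CV of members at 10 TPM or more was 3.53% for the proteasome and 34.3% for mitosis, while the 4 histone genes at that level had CVs of 49.6% to 54.5%. Imp4, a nucleolar protein gene, had the smallest CV at 100 TPM or more (0.607%), with 126.5, 128.2, 127.8 and 128.0 TPM. Next came Parl, a mitochondrial protease gene (0.624%), Ube2e1, a ubiquitin-conjugating enzyme gene (0.842%), the pseudogene Impdh2-ps (0.929%), Txndc5 (0.951%), the proteasome subunit gene Psma5 (1.01%), Pithd1 (1.05%), the phosphatase gene Inpp5d (1.15%), Naa12 (1.20%) and the pseudogene Gm10288 (1.21%). From counts, edgeR's biological coefficient of variation over 14306 genes was 13.86% with batch in the model, 16.7% with sex and 9.774% with both. With no covariate the filter kept 13307 genes, and it was 15.77% over these.

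**Figure D4:**
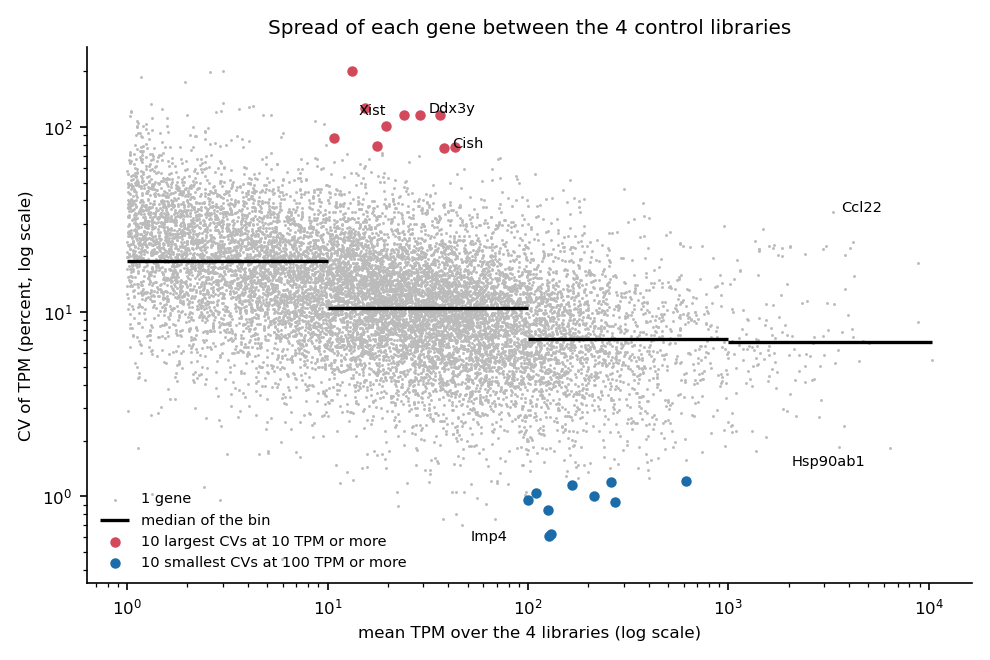
CV of TPM between the 4 control libraries (percent, vertical axis, log scale) against mean TPM (horizontal axis, log scale), with 1 grey point for each of the 12951 genes at 1 TPM or more. Black lines give the median CV of each abundance bin, falling from 18.8% to 6.84%, red points the 10 largest CVs at 10 TPM or more and blue points the 10 smallest at 100 TPM or more.

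At the other end, 3 of the 10 largest CVs at 10 TPM or more belonged to genes tied to sex. Xist, the RNA that silences an X chromosome, had 0.0241, 43.7, 0.0157 and 52.2 TPM, and the Y-linked genes Ddx3y and Eif2s3y were at 0 TPM in both females, with 62.38 and 53.53 TPM for Ddx3y and 68.52 and 77.64 TPM for Eif2s3y in the males. Each library thus matched the sex in its label. A pair were immunoglobulin variable segments that were high in a single library, Ighv2-3 with 9.475, 49.41, 9.627 and 10.08 TPM and Igkv4-61 with 24.60, 7.767, 4.137 and 6.414 TPM. Their counts varied in the same way, at 68, 355, 67 and 74 for Ighv2-3 and at 173, 48, 24 and 43 for Igkv4-61. Cish was the tenth gene, with 1064, 550, 3597 and 4096 counts. For the other 4 the counts did not follow the TPM. Rps18-ps4 had 52.78 TPM in control 3 and 0 in the others, with 0 counts in all 4, and Rps12l1, annotated as a processed pseudogene, had 0, 0, 20.75 and 40.70 TPM on 2, 10, 3 and 4 counts. Evi2b had 34.84, 4.785, 22.56 and 8.204 TPM on 1508, 1711, 971 and 1106 counts, and Gm28037 had 19.10, 29.22, 31.70 and 92.73 TPM on 15640 to 16710 counts.

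Control 1 stood apart more often than the others at the low end. Of 8359 genes at 10 TPM or more, 67 were lower in control 1 than in any other library by more than 1.5-fold, against 31, 20 and 7 for controls 2, 3 and 4. The number of genes above all others by that factor was 29, 21, 9 and 32. Genes lowest in control 1 included the mitosis genes Ccnf (5.624, 13.02, 12.77 and 16.73 TPM), Hmmr (4.260, 14.62, 9.918 and 19.28 TPM) and Cdk1 (14.09, 29.81, 28.30 and 34.86 TPM) and the histone genes H2ac14, H2ac15, H2ac23 and H2ac24. Those highest in control 1 included Nfkbid (59.07, 32.09, 29.31 and 31.89 TPM), an atypical inhibitor of NF-kB, and Bcl2l11. Control 1 was also the lowest library for 17 of the 39 classes and the highest for 8, while control 4 was the highest for 13. Control 1 was a single library, so these differences have no replicate. Across 12951 genes the libraries were similar, with Pearson's r of log2(TPM + 1) between 0.9835 (controls 1 and 4) and 0.9914 (controls 3 and 4), although genes are not independent replicates.

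The sexes differed in mitosis genes. In edgeR's quasi-likelihood test of the counts with batch as a covariate, 59 of 14306 genes were higher in females (0.412%) and 8 were higher in males (0.0559%), where a call needed a Benjamini-Hochberg adjusted p below 0.05 and a log2 difference beyond 0.5 in size. Mitosis genes made up 25 of the 59, and 0 of the 55 tested in this class were higher in males. The median log2 difference of the class (females minus males) was 0.76, against -0.00533 over all genes tested, and 54 of 55 members were higher in the female of both batches, compared with 29.7% of all genes tested. Their summed TPM was 1.86-fold higher in females in batch A, where control 1 is the only male, and 1.46-fold in batch B. Ccnb2 (cyclin B2) had 5.85, 20.6, 6.54 and 16.8 CPM (counts scaled to the library total, not to length), a log2 difference of 1.58 ± 0.15 (SE, adjusted p = 0.0131, edgeR). Hmmr, a spindle protein gene, had 8.68, 28.6, 19.2 and 37.0 CPM and a log2 difference of 1.32 ± 0.18 (adjusted p = 0.0404, edgeR), which was 0.77 and not called without control 1, and was also not called without control 2 or control 4. Plk1, the mitotic kinase gene, had 13.3, 38.1, 19.8 and 41.5 CPM and a log2 difference of 1.29 ± 0.13 (adjusted p = 0.0174, edgeR). Both females were above both males for these 3 genes. Iqgap3, a scaffold gene of no class, had 10.2, 30.4, 12.5 and 24.9 CPM (log2 difference 1.28 ± 0.16, adjusted p = 0.0360). Higher in females were also Top2a, Mki67, Cdk1, Aurkb and Birc5 of the mitosis class, Rrm2 and Tyms of nucleotide synthesis, the replication checkpoint gene Clspn and the histone gene H2ac23.

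How firm this difference is depends on single libraries. Control 1 was the lowest of the 4 for the summed mitosis genes, and the smallest p that an exact test of 2 libraries against 2 can give is 0.333, so the calls rest on a spread shared across genes with 1 residual degree of freedom. Without control 1, 49 genes were called higher in females, 6 of them mitosis genes, and 12 in males. Without control 2 the numbers were 6 and 4 with 0 mitosis genes, without control 3 they were 65 and 18 with 31, and without control 4 they were 20 and 4 with 3. DESeq2 called 121 genes higher in females, 41 of them mitosis genes, and 5 higher in males. Without the batch term 2 and 4 genes were called, and 0 mitosis genes. In all these fits the 67 genes kept their direction. With limma on log2(TPM + 1), 3 genes were called in each direction and 0 mitosis genes. Sex, mouse and culture cannot be told apart with 1 mouse of each sex per batch, and the part that reduced viability in replicate 1 had in the difference was not tested.

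The largest differences by sex were in genes of the sex chromosomes, which held 8 of the 59 genes higher in females (all on X) and 6 of the 8 higher in males (5 on Y and 1 on X). Xist, on chromosome X of GRCm39 from 102503972 to 102537573 on the minus strand, had 2, 16570, 2 and 20295 counts. The annotated RNAs ENSMUSG00002076282 (0, 172, 0 and 206 counts) and ENSMUSG00002075825 (0, 85, 0 and 88 counts) lie inside the Xist gene, so they are not independent of it. They were at least 56.6-fold and at least 27.0-fold higher in females, taken against a floor of 3 counts per library. Kdm6a, Kdm5c and Eif2s3x, X-linked genes with Y-linked partners, were also higher in females. Eif2s3x, which encodes a subunit of the initiation factor EIF2, had 99.89, 201.5, 134.0 and 216.3 TPM. In males the Y-linked genes were higher by at least 1690-fold for Ddx3y (5311, 0, 5193 and 0 counts), 947-fold for Eif2s3y, 458-fold for Kdm5d and 71.9-fold for Uty, against the same floor. Xlr3b on chromosome X, B930036N10Rik and Kcnq1ot1, a long non-coding RNA of an imprinted region, completed the named genes higher in males, with 597, 261, 765 and 465 counts for Kcnq1ot1. B930036N10Rik had 101, 48, 624 and 132 counts, so control 3 was far above the rest and the male control 1 was below the female control 4. The same gene was also called higher in batch B. Gm43305, an annotated long non-coding RNA on chromosome 14, had 22.97, 125, 31.2 and 82.1 CPM and was higher in females (log2 difference 1.92 ± 0.21, adjusted p = 0.0249, edgeR).

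More genes were called by batch than by sex. With sex as a covariate, edgeR called 262 of 14306 genes higher in batch B (1.83%) and 224 higher in batch A (1.57%), and 233 and 182 of these belonged to no class. Among the classes higher in batch B, 4 of 18 genes of the IL4 receptor and STAT6 pathway were called. Cish, an inhibitor of cytokine receptors that STAT5 induces, had 26.6, 13.6, 86.8 and 94.4 CPM, a log2 difference (B minus A) of 2.24 ± 0.22 (SE, adjusted p = 0.0134, edgeR). Socs2 had 40.0, 38.3, 78.7 and 121 CPM (1.32 ± 0.15), Il4ra had 257, 206, 357 and 393 CPM (0.70 ± 0.11) and Stat5b had 92.8, 86.3, 127 and 127 CPM (0.50 ± 0.08). Both libraries of batch B were above both of batch A for each. The median log2 difference of this class was 0.0269 against -0.00571 over all genes tested, and the other 14 members were not called. The cytokine receptor genes Il5ra (93.8, 73.9, 220 and 244 CPM, 1.48 ± 0.12) and Il2ra (33.9, 32.0, 55.4 and 57.1 CPM, 0.77 ± 0.09) were higher in batch B, as were Ccl22 (2276, 3553, 4270 and 5146 CPM, 0.72 ± 0.10), Ccnd2, Cd44, Slamf1, Tfrc and Prdm1. Ighg1 had 311, 335, 554 and 662 CPM (0.91 ± 0.08) and Ighe 40.7, 54.5, 66.6 and 97.2 CPM (0.77 ± 0.09). Among genes averaging 1 CPM or more, the difference was largest in Ccr4 (the CCL22 receptor gene, 0.425, 0.644, 2.12 and 3.02 CPM), then in Cish and, in descending order, Tnfsf15, B930036N10Rik, Spsb1, Plcd1, Nabp1 (10.2, 10.2, 33.9 and 41.2 CPM) and Ido2.

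Higher in batch A were 5 of 11 genes of MHC class II presentation, namely H2-Ab1 (log2 difference -0.61 ± 0.08), H2-Aa (-0.60 ± 0.08), H2-Eb1 (-0.62 ± 0.08), H2-Oa (-0.80 ± 0.10) and H2-Ob (-0.74 ± 0.09, SE). Over all genes tested 1.57% were called higher in batch A, the share to set beside this count and those that follow. The median of the MHC class II class was -0.48 and all 11 were lower in batch B in both sexes, compared with 34.3% of all genes tested. Of 25 genes of the B cell receptor complex 5 were higher in batch A, namely Cd79a (340, 364, 241 and 199 CPM), Cd72, Fcgr2b, Siglecg and Dok3, and the last 4 are known as brakes on receptor signalling. The heavy chain genes Ighg2c (4.50, 7.16, 0.820 and 1.13 CPM, -2.56 ± 0.21), Igha (15.7, 8.79, 1.47 and 2.81 CPM, -2.48 ± 0.36) and Ighg2b (11.1, 24.5, 6.47 and 6.98 CPM, -1.31 ± 0.23) were higher in batch A, the opposite side to Ighg1 and Ighe. Migration and tissue organisation genes Ltb, Ccr6 and S1pr1, the checkpoint ligand gene Cd274, Ly6d, and 4 of 31 interferon-stimulated genes tested (Ifit1, Oasl1, Gbp2 and Gbp3) were also higher in batch A. So were Fbln2, Cavin1, Sparc, Col1a2 and Ccn1, all genes of fibroblasts or other stroma, and the pseudogene Gm6254. Of the fibroblast markers 6 of 15 tested were higher in batch A, the median log2 difference of the list was -1.62, and its summed TPM was 13.2 and 26.5 in batch A against 7.07 and 7.55 in batch B. Of the 16 B cell markers, all tested, 2 (Cd79a and Fcmr) were called higher in batch A. The median log2 difference of that list was -0.317, and 13 of the 16 were lower in batch B in both sexes (81.2%). Of 6 germinal centre markers tested, Bcl6 was called higher in batch A and Mybl1 in batch B. Of the plasma cell markers 6 were tested, Jchain was called higher in batch A and Prdm1 in batch B, and the median log2 difference was 0.118. Of the T cell markers 6 were tested and Thy1 was called higher in batch B, at 11.02, 5.10, 19.2 and 31.5 CPM, while the median log2 difference was -0.593 and 4 of the 6 were lower in batch B in both sexes. The part of these other cells in the batch differences was not tested.

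The calls by batch changed with the model and with the libraries. DESeq2 called 209 genes higher in batch B and 156 higher in batch A. Without the sex term edgeR called 0 genes in either direction (2614 at an unadjusted p under 0.05), and limma on log2(TPM + 1) called 0 (2934 at an unadjusted p under 0.05). Without control 4, 0 genes were called in either direction by edgeR (1226 at an unadjusted p under 0.05), and without control 3, 10 were called higher in batch B and 1 in batch A. Without control 1, 176 and 227 genes were called, 3 of them in the MHC class II class, and all 486 genes kept their direction in these edgeR fits. Mice and cultures are confounded with the batch, and their parts cannot be told apart.

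**Figure D5:**
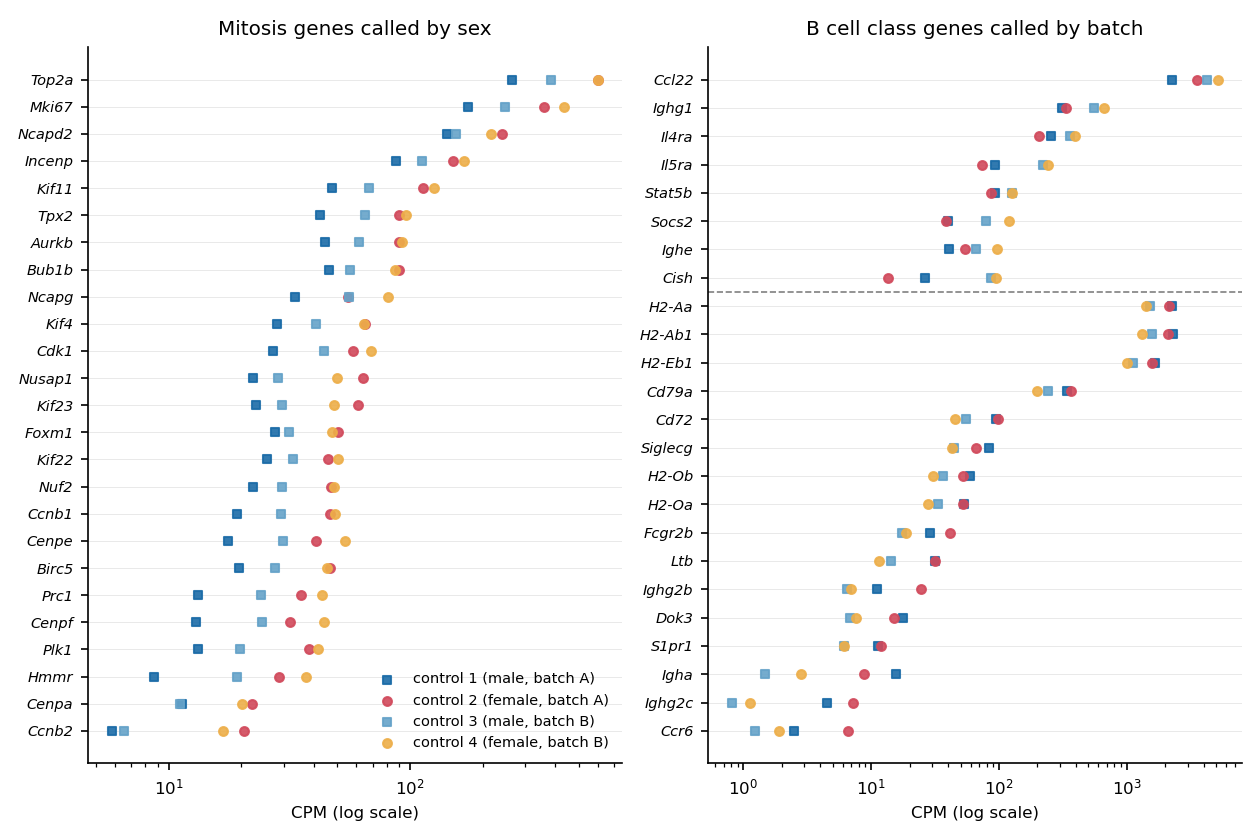
CPM in each control library (horizontal axis, log scale) of the 25 mitosis genes called higher in females (left) and of B cell class genes called by batch (right, higher in batch B above the dashed line and in batch A below it). In the left panel both female libraries lie above both male libraries for the genes shown, apart from Ncapg with 55.6 CPM in control 2 against 55.7 in control 3, and in the right panel the batches separate in the same way.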

How the data were processed

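RNA of splenic B cells from 4 control mice was sequenced as paired 50 base reads from 100 ng of total RNA with a directional library kit. Per the paper's methods and the submitters' processing notes, reads were trimmed with Trim Galore 0.6.6, checked with FastQC and mapped to GRCm39 with HISAT2 2.1.0. The authors deposited raw counts per gene from Seqmonk over merged isoforms of Ensembl annotation with strand taken into account. The authors also deposited TPM from StringTie 2.1.1. Whether poly(A) RNA was selected is not given in the sources used here. No per-sample column was left unused among the controls.

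Shares, ranks, class sums and CV were computed from TPM in Python 3.11.15, and a log2 scale used log2(TPM + 1). Counts were analysed with edgeR 4.0.16 in R 4.3.3 (filterByExpr, TMM, quasi-likelihood test, batch and sex in the model, two-sided, Benjamini-Hochberg). Calls needed an adjusted p below 0.05 with a log2 difference beyond 0.5 in size. Replicates are separate mice by number. The p-values rest on the spread left after batch and sex, with 1 residual degree of freedom, and on a spread shared across genes. With 1 mouse of each sex per batch they do not measure the spread between mice of the same sex and batch. Of 53242 gene identifiers 52647 were matched to GENCODE M39, which gave coordinates, lengths and biotypes. Counting intervals were not computed, and a floor of 3 counts per library was used for genes at 0, which covers counting error only. Code was tested on simulated data.

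The rule for named genes took the 25 of highest mean TPM, the 4 highest of each class and its members at 0, the 10 largest CV at 10 TPM or more and the 10 smallest at 100 TPM or more, the 8 largest called differences in each direction for sex and batch at 1 CPM or more, and the leading markers. The classes, lists and rule were chosen with earlier results of these data known. Alternatives were counts per kilobase, shares of counts, totals without mitochondrially encoded or immunoglobulin genes, other filters, DESeq2 1.42.0, its size factors, limma 3.58.1 on log2(TPM + 1) or log2(TPM + 0.1), models without the other covariate and leaving out each replicate. Proteomics of the study and the libraries of the other genotype were not analysed here. Some genes that the rule would name are not reported here.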

Additional observations from a re-analysis of the deposited data

Results flagged for a closer look

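Among 233 groups of 4 values (class sums, marker sums and named genes) 13 had a library far from the other 3. A rate of 1 in 20 would give 11.7, but it holds for independent groups that were not chosen by their spread. Class sums here contain named genes, and some genes were named for a large or small CV, so 11.7 is only a guide. Control 2 was the library in 7 of them, control 4 in 3, control 3 in 2 and control 1 in 1.

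For class sums, elongation and termination factors had 26660 TPM in control 4 against 28410 to 28690 in the others. Class switch recombination and repair genes had 1265 TPM in control 1 against 1442 to 1467. Dendritic cell markers summed to 86.78 TPM in control 2 against 96.79 to 97.93. Bst2 (69.93 against 79.68 to 83.20 TPM) gave 82.8% of that sum over the 4 libraries. Zbtb46 and Ccr9 of the same list were also lowest in control 2, whereas Flt3, Xcr1 and Itgax were highest there. Neutrophil markers summed to 0.0176 TPM in control 3 against 0.

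For single genes, control 2 was high for Atp5b (1965 TPM against 1844 to 1862) and for Ighv2-3 (49.41 against 9.475 to 10.08), and low for Shmt2 (696.4 against 817.8 to 833.1), Gpr183 (134.4 against 171.1 to 174.6), the glutamine transporter gene Slc1a5 (231.9 against 286.8 to 294.0) and Snhg1 (293.0 against 365.6 to 380.5). Control 4 was low for Eef1a1 (9510 against 10530 to 10710) and for the nucleoside diphosphate kinase gene Nme2 (849.9 against 916.3 to 927.7). Rps18-ps4 had 52.78 TPM in control 3 against 0, with 0 counts in all 4 libraries. Rps18-ps6 had 108.0, 95.99, 0 and 87.63 TPM on 141, 103, 125 and 87 counts, so its TPM was 0 only in the library where Rps18-ps4 had TPM. How reads were divided between these entries was not tested.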

How the results depend on the processing

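With 1 mouse of each sex per batch, small differences are below what 4 libraries can show. The 10 most abundant genes held 8.586% when counts were divided by gene length and 6.344% without mitochondrially encoded genes, and the first 100 held 29.18% by counts per kilobase. The 39 classes held 43.03% by counts per kilobase, 44.64% without mitochondrially encoded genes and 37.01% of the counts. By class, 31 of 39 moved beyond their spread with counts per kilobase and 35 with shares of counts. These shifts went both ways. With counts per kilobase, heavy chain constant genes went from 0.4085% to 0.7582% and chemokines from 0.4549% to 0.8054%, while glycolysis went from 0.7196% to 0.4564%. With a library left out 0 classes moved. Leaving out 1 of 4 libraries cannot shift a mean by the SD of the 4, so this 0 does not test single libraries. The median CV was 11.97% at 1 TPM or more and 7.082% at 100 TPM or more, and 8.269% to 10.09% with each replicate left out. The biological coefficient of variation with no covariate was then 14.39% to 16.97%.

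Genes higher in females numbered 94 with DESeq2's size factors, 121 with DESeq2, 136 with no filter on low counts and 2 without the batch term, and 3, 3 and 0 with limma on log2(TPM + 1), on log2(TPM + 0.1) and with no filter. Leaving out each replicate gave 6 to 65. Higher in males were 5 with DESeq2, 4 without the batch term, 3, 3 and 0 with limma and 4 to 18 with each replicate left out. By batch, 331 and 266 genes were higher in B and in A with DESeq2's size factors, 209 and 156 with DESeq2 and 372 and 304 with no filter. Higher in batch B were 0 without the sex term, 0, 1 and 0 with limma (2934 genes at an unadjusted p under 0.05 on log2(TPM + 1)) and 0 to 353 with each replicate left out, and higher in batch A were 0 without the sex term, 0, 0 and 0 with limma and 0 to 291. ENSMUSG00002076282 changed sign in the comparison of the sexes with limma and no filter (-0.032) and B930036N10Rik with limma on log2(TPM + 0.1) (0.67); the cause was not tested. In the edgeR and DESeq2 alternatives, all 67 genes called by sex and all 486 called by batch that had a value kept their direction. No paired analysis was possible by replicate number because those numbers link the genotypes, which were not compared. Within the controls the sexes were paired by batch, which was in the model.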

Other observations

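Of the 100 most abundant genes, 8 belonged to no class. Ptma (prothymosin alpha) had 2565, 2840, 2671 and 2640 TPM in controls 1 to 4, and the RNA-binding protein genes Ybx1, Serbp1 and Cnbp had means of 2169, 1535 and 1378 TPM. Ly6e, a surface protein gene, had 1577, 1582, 1295 and 1137 TPM, higher in both libraries of batch A. The other 3 were the pseudogenes Gm9794, Gm10925 and Gm28661. Just below them stood Slc25a5, the mitochondrial ADP/ATP carrier gene, at 1305 TPM, and Rn18s-rs5, an annotated ribosomal RNA, at 1072 TPM.

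Control 2 alone was high for several surface and cytoskeletal genes, chosen after their values were seen. Cd36, a scavenger receptor gene, had 16.41, 58.24, 17.12 and 22.75 TPM, the actin-bundling gene Fscn1 29.70, 90.29, 34.76 and 37.28 TPM, and the IL9 receptor gene Il9r 30.03, 71.31, 27.80 and 34.74 TPM. Fibroblast markers also summed highest in control 2, at 26.5 against 7.07 to 13.2 TPM, and monocyte and macrophage markers at 29.1 against 16.33 to 22.77 TPM. The monocyte and macrophage sum followed Mpeg1, with 7.382, 17.05, 5.557 and 5.654 TPM. Of the same list Cd68 and Adgre1 were highest in control 1, and Lyz2 was lowest in control 2. Dendritic cell markers summed lowest in control 2, with Bst2 giving 82.8% of the sum, and Zbtb46 and Ccr9 were also lowest there. Flt3, Xcr1 and Itgax of that list were highest in control 2, at only 0.382 TPM for Xcr1 and 0.132 TPM for Itgax. The part of these cells was not tested. The same library was lowest in small nucleolar RNAs, which summed to 935.7, 542.2, 1130 and 926.8 TPM. Control 3 alone was low for Tnf (20.22, 15.54, 4.339 and 15.65 TPM), Egr1, Dusp1 and Zfp36. Control 4 alone was high for Jun (37.56, 23.20, 35.64 and 79.67 TPM) and for the CDK inhibitor gene Cdkn1a (7.447, 9.597, 11.53 and 23.99 TPM).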
